A study of Oryza sativa Indica Group with 27 samples.

Results

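The mRNA of unstressed rice plants that overexpressed the transcription factor gene OsERF71 (erf71) was compared with that of wild-type plants (WT), both of the cultivar Nipponbare, at 0 h after the start of dehydration treatment (HAT). A gene entered the comparison when it had at least 5 FPKM (fragments per unit of transcript length and of mapped fragments) in 1 of the 2 libraries, which kept 15923 of the 37869 genes listed. The erf71 plants carry the AP2 transgene of the labels and the WT plants carry none. All plants were at the three-leaf stage, were grown in Yoshida nutrient solution and were frozen whole, so that shoot and root RNA are mixed. At 0 HAT the solution had not been removed. The promoter of the transgene, and whether the erf71 plants came from 1 transgenic line, are not given in the sources used here. The comparison used 2 of the 27 samples of the series, 1 library of each genotype. There was therefore no replicate error and no test, and every difference below is a difference between those 2 libraries. The 4 libraries of erf71 and WT at 1 and 6 HAT were used to see which differences were also present in other libraries, although those plants had been dehydrated.

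OsERF71 belongs to the AP2/ERF family of plant transcription factors, whose members bind short DNA elements in promoters and include many regulators of responses to drought, cold, wounding and ethylene. Grasses such as rice take up iron in a way of their own. Their roots make nicotianamine from S-adenosylmethionine, convert it into mugineic acid family chelators, secrete these into the soil and import the iron complex that forms. Rice also takes up ferrous iron directly, and basic helix-loop-helix factors control the genes of both routes.

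Most genes had nearly equal levels in the erf71 and WT libraries. The median log2 ratio of erf71 over WT, after 0.1 FPKM was added to both values, was -0.04, with quartiles of -0.27 and 0.18, and 82.6% of the genes lay within 1.5-fold. At least 2-fold higher levels in erf71 were found for 497 genes (3.12%), and at least 2-fold lower levels for 632 genes (3.97%). The median level of the genes was 15.8 FPKM in erf71 and 16.3 FPKM in WT. Over all 37869 genes listed, with no limit, the summed level was 827501 FPKM in erf71 and 841545 FPKM in WT. The frequency of such differences had no single trend with level. Of the 4243 genes with a mean of 5 to 10 FPKM, 3.63% were at least 2-fold higher and 4.15% at least 2-fold lower in erf71. The shares were 1.66% and 2.65% of 8151 genes at 10 to 50 FPKM, 2.23% and 3.41% of 1524 genes at 50 to 100 FPKM, and 3.03% and 3.35% of 1254 genes at 100 FPKM or more. A further 751 genes had a mean under 5 FPKM and passed the limit only through the library in which they were high. This selects for large ratios, and those genes held 136 of the higher and 146 of the lower calls. The number of reads behind a value is unknown, because the table holds no counts.

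**Figure D1:**
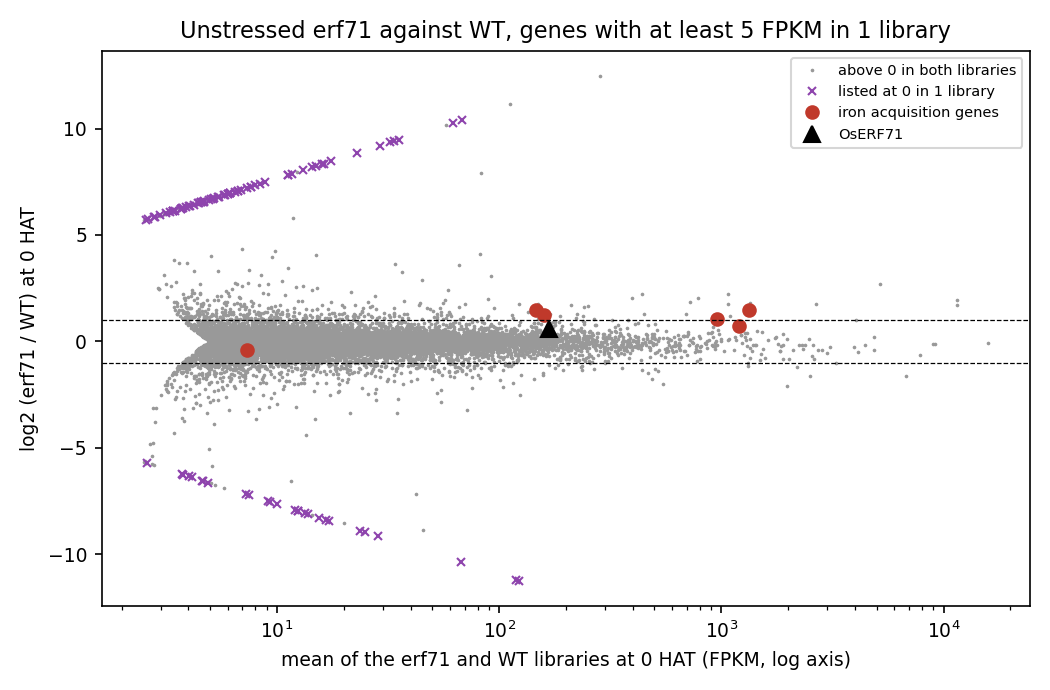
Log2 ratio of erf71 over WT at 0 HAT (vertical axis) against the mean level of the 2 libraries in FPKM (horizontal axis, log scale), with 1 point per gene for 15923 genes and dashed lines at 2-fold. Most points lie between the dashed lines, the 92 genes listed at 0 in 1 library (crosses) form a band at the top and another at the bottom, and 4 of the 6 iron acquisition genes (circles) lie above the upper line.

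The overexpressed gene itself was higher in the erf71 library, but by less than 2-fold. OsERF71 (Os06g0194000) had 201 FPKM in erf71 and 133 FPKM in WT at 0 HAT, a log2 ratio of 0.59. At 1 HAT it had 172 FPKM in erf71 and 122 FPKM in WT, and at 6 HAT 264 FPKM in erf71 and 187 FPKM in WT, so that the log2 ratio was 0.50 at both later times. The erf71 library was the higher one at all 3 times. At 0 HAT its ratio was number 1081 from the highest of the 15923 genes. Reads from the transgene and from the resident copy cannot be told apart in the gene value.

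The listed genes that the study placed directly below OsERF71 in its regulatory tree showed little difference before stress. The part of the tree listing used here held 22 such genes. All 22 passed the expression limit, and 0 were past 2-fold in either direction. Their log2 ratios ran from -0.26 to 0.54 with a median of 0.07, beside -0.04 over all genes. The tree was built on these samples. WRKY78, a WRKY family transcription factor, had 23.5 FPKM in erf71 and 22.2 FPKM in WT. WRKY2-like (Os12g0597700), another member of that family, had 56.8 FPKM in erf71 and 61.9 FPKM in WT. The median log2 ratio of the 22 genes was 0.27 at 1 HAT and 0.15 at 6 HAT. Of these genes, 12 were above a log2 ratio of 0 at 0 HAT, 19 at 1 HAT and 18 at 6 HAT, beside 45.1%, 53.2% and 55.2% of all genes at the same times.

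Genes of iron acquisition were the group with the largest baseline difference among the lists examined. Of 6 genes, 4 were at least 2-fold higher in erf71 (3.12% of all genes were) and 0 were at least 2-fold lower, and the median log2 ratio was 1.13, beside -0.04 over all genes. Their summed level was 5168 FPKM in erf71 and 2417 FPKM in WT. These genes were set apart from a longer list of nutrient genes after their values were seen. Further iron genes of that list were not counted, because their symbols could not be tied to the identifiers.

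OsIRO3, a basic helix-loop-helix regulator of the iron deficiency response, had 215 FPKM in erf71 and 77.3 FPKM in WT at 0 HAT (log2 ratio 1.47). OsNAS2, a nicotianamine synthase, had 1945 FPKM in erf71 and 712 FPKM in WT (1.45). OsNAS1, the neighbouring gene for a second nicotianamine synthase, had 1282 FPKM in erf71 and 627 FPKM in WT (1.03). The OsNAS1 and OsNAS2 sequences are much alike, and how reads were divided between them is uncertain. OsYSL15, the importer of the iron complex with the chelator, had 224 FPKM in erf71 and 94.9 FPKM in WT (1.24). OsNAAT1, the nicotianamine aminotransferase of the step that follows, had 1496 FPKM in erf71 and 898 FPKM in WT, a log2 ratio of 0.74 that stayed under 2-fold. The exception in direction was OsIRT1, the importer of ferrous iron, with 6.33 FPKM in erf71 and 8.37 FPKM in WT (-0.40). The differences thus covered a regulator, chelator synthesis and import of the chelated iron, and the weakly expressed ferrous iron importer did not share them.

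The higher level in erf71 was also seen in the libraries of dehydrated plants, in which these transcripts were scarcer in both genotypes. At 1 HAT all 6 genes were at least 2-fold higher in erf71, beside 6.36% of all genes, with a median log2 ratio of 1.46. For OsIRT1 this rested on low values, 2.29 FPKM in erf71 and 0.764 FPKM in WT. OsIRO3 then had 171 FPKM in erf71 and 54.6 FPKM in WT, and OsYSL15 had 115 FPKM in erf71 and 25.1 FPKM in WT. OsNAS2 had 639 FPKM in erf71 and 261 FPKM in WT at that time. At 6 HAT 5 of the 6 genes were above a log2 ratio of 0, and 2 of them, OsYSL15 and OsNAAT1, were at least 2-fold higher, beside 3.49% of all genes. OsYSL15 had 13.1 FPKM in erf71 and 3.90 FPKM in WT, and OsNAAT1 had 232 FPKM in erf71 and 86.8 FPKM in WT. OsIRT1 was the 1 iron gene at least 2-fold lower in erf71 at 6 HAT, but it was below 1 FPKM in both libraries.

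**Figure D2:**
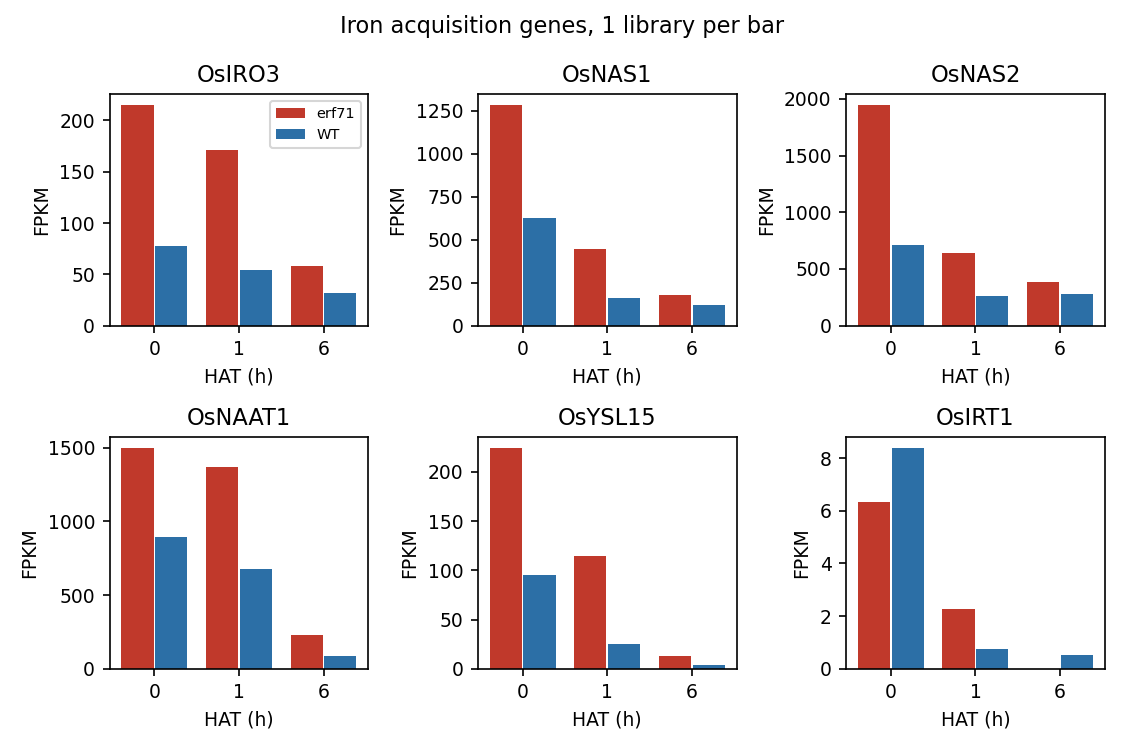
Level in FPKM (vertical axes, from 0) of 6 iron acquisition genes at 0, 1 and 6 HAT (horizontal axes) in erf71 (left bar) and WT (right bar), with 1 library per bar and no error bars. For OsIRO3, OsNAS1, OsNAS2, OsNAAT1 and OsYSL15 the erf71 bar is the taller one at all 3 times, and for OsIRT1 it is shorter at 0 HAT.

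Iron acquisition genes are active mainly in roots. Of the expressed root marker genes, 3 of 4 were somewhat higher in the erf71 library too, beside 45.1% of all genes. Of 6 root markers, 4 passed the expression limit, 0 were past 2-fold, and their log2 ratios ran from -0.29 to 0.46 with a median of 0.26. With no limit, the median of all 6 was -0.02. Their summed level was 576 FPKM in erf71 and 453 FPKM in WT. OsLsi1, a silicon importer of the root, had 295 FPKM in erf71 and 214 FPKM in WT, and OsLsi2, the silicon exporter that works with it, had 241 FPKM in erf71 and 203 FPKM in WT. OsHAK1 had 35.1 FPKM in erf71 and 29.0 FPKM in WT. OsPIP2;5 went the other way, with 5.24 FPKM in erf71 and 6.43 FPKM in WT (-0.29). The other 2 markers, the nitrate transporter gene OsNRT2.1 and the ammonium transporter gene OsAMT1;2, were below 1 FPKM in both libraries. The leaf gene Rca, for Rubisco activase, had 8840 FPKM in erf71 and 9553 FPKM in WT (-0.11). The 5 iron genes that were higher in erf71 had larger log2 ratios than any of these root markers at 0 HAT, the smallest being 0.74 for OsNAAT1 and the largest root value 0.46 for OsLsi1. At 1 HAT this order did not hold, since OsLsi1 had 87.2 FPKM in erf71 and 19.5 FPKM in WT (2.16) and OsLsi2 had 122 FPKM in erf71 and 8.35 FPKM in WT (3.85). The part of root content in the iron result was not tested. In whole plants, fewer cells of a type and less RNA per cell cannot be told apart.

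The phosphate starvation marker OsSPX1, a sensor of inositol pyrophosphates, stayed close to equal, with 12.7 FPKM in erf71 and 14.6 FPKM in WT (-0.19).

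A broad and mostly smaller difference ran the other way in the genes of Module 4, a co-expressed group with many genes that the study tied to the cell cycle. Of its 972 genes in the part of the listing used here, 591 passed the expression limit, of which 62 (10.5%) were at least 2-fold lower in erf71, beside 3.97% of all genes, and 1 was at least 2-fold higher. The median log2 ratio of the 591 genes was -0.49, with quartiles of -0.79 and -0.21, and 504 of them (85.3%) were below 0, beside 54.9% of all genes. A limit that is passed in either library can favour genes that are high in only 1 of them. With a limit of 5 FPKM on the mean of both libraries instead, 543 Module 4 genes had a median of -0.47 and 84.7% were below 0. Over all 972 listed genes, with no limit, the median was -0.54. The module was defined on these samples, so that it is not independent evidence of a direction.

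The median level of the 972 genes was 4.69 FPKM in erf71 and 6.91 FPKM in WT at 0 HAT. It was 4.17 FPKM in erf71 and 4.86 FPKM in WT at 1 HAT, and 1.18 FPKM in erf71 and 1.44 FPKM in WT at 6 HAT. The erf71 library was lower at each time, and the distance was widest before stress. For the 591 genes the median log2 ratio was -0.16 at 1 HAT and -0.10 at 6 HAT. The listed Module 4 genes include OsACT1, a gene for actin, with 93.3 FPKM in erf71 and 122 FPKM in WT (-0.39). OsACT2, another actin gene, had 24.5 FPKM in erf71 and 34.7 FPKM in WT, and OsGAPDH, for a glycolytic enzyme, had 427 FPKM in erf71 and 528 FPKM in WT. These 3 genes, which are often used as references, were thus all lower in the erf71 library, by log2 ratios of -0.50 to -0.31.

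**Figure D3:**
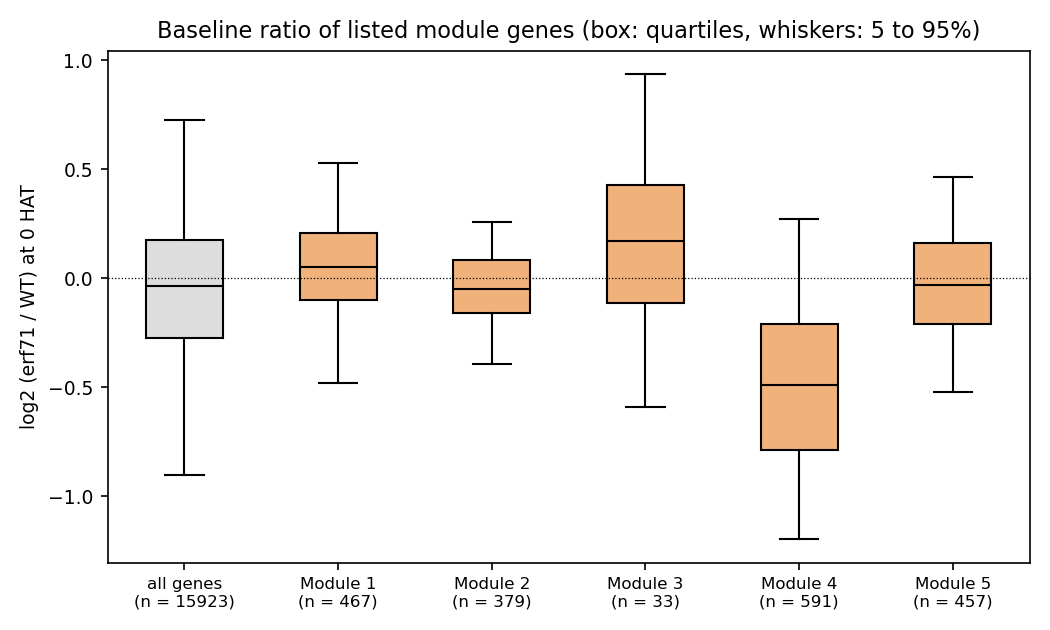
Log2 ratio of erf71 over WT at 0 HAT (vertical axis) for all 15923 genes and for the listed genes of Modules 1 to 5 that passed 5 FPKM in 1 library, with boxes from the lower to the upper quartile, a line at the median and whiskers from the 5% to the 95% point over genes. The Module 4 box lies wholly below 0, and the boxes of the other 4 modules include 0.

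The medians of Modules 1, 2 and 5 were close to 0 between the unstressed libraries, and that of Module 3 was slightly above it. Over all genes 3.12% were at least 2-fold higher and 3.97% at least 2-fold lower. In Module 1, where the study placed its drought transcription factors, 5 of 467 genes were at least 2-fold higher and 9 were at least 2-fold lower, with a median log2 ratio of 0.05. Module 2 had 0 higher and 2 lower of 379 genes, with a median of -0.05. Module 3, which the study tied to oxidative stress, had 2 higher (6.06%) and 2 lower (6.06%) of 33 genes, with a median of 0.17 and a summed level of 2581 FPKM in erf71 and 1723 FPKM in WT. At 1 HAT 25 of these 33 genes were at least 2-fold higher in erf71, beside 6.36% of all genes. With no expression limit, the median of the 43 listed Module 3 genes at 0 HAT was 0.01. Module 5, which holds photosynthesis genes, had 1 higher and 0 lower of 457 genes, and its median of -0.03 was next to that of all genes. Its median log2 ratio was -0.43 at 1 HAT and -0.29 at 6 HAT. RbcS, for the small subunit of Rubisco, had 8588 FPKM in erf71 and 9251 FPKM in WT at 0 HAT (-0.11). A further 51 expressed genes that the listing assigns to no module had a median of -0.58, with 46 of them (90.2%) below 0. With no expression limit the median of the 82 listed genes was -0.33. Of the 51, 7 (13.7%) were at least 2-fold lower in erf71, beside 3.97% of all genes, and 0 were at least 2-fold higher. Their median log2 ratio was -0.84 at 1 HAT and -0.41 at 6 HAT.

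Among the energy metabolism genes that the study named, 1 of 10 expressed genes was at least 2-fold lower, beside 3.97% of all genes, and 8 of 10 (80.0%) were below a log2 ratio of 0, beside 54.9%. The gene for a protein like the W subunit of the photosystem II reaction centre (Os01g0773700) had 2147 FPKM in erf71 and 4402 FPKM in WT at 0 HAT (-1.04). It was just short of 2-fold with median ratio scaling (-0.993) and with upper quartile scaling (-0.976). It had 1760 FPKM in erf71 and 2544 FPKM in WT at 1 HAT, and 265 FPKM in erf71 and 507 FPKM in WT at 6 HAT. It was thus the lower one in erf71 at all 3 times. The remaining 9 genes had log2 ratios of -0.59 to 0.82 at 0 HAT.

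Expressed genes on the list for the drought and abscisic acid response were not raised past 2-fold in the unstressed erf71 plants. Of 13 listed dehydration genes, 9 passed the expression limit. Of these 9, 0 were past 2-fold in either direction, beside 3.12% of all genes higher and 3.97% lower. For so few genes, 0 is near those shares. The median log2 ratio was -0.06, beside -0.04 over all genes. Dip1, a dehydration-inducible marker, had 86.8 FPKM in erf71 and 92.6 FPKM in WT. OsLEA3, for a late embryogenesis abundant protein that protects dehydrated cells, had 62.2 FPKM in erf71 and 59.2 FPKM in WT. Rab16C, a dehydrin gene, had 11.3 FPKM in erf71 and 5.95 FPKM in WT (0.91), and the similar sequences of the Rab16 genes make the split of reads among them uncertain. ABA8ox1, for an enzyme that breaks down abscisic acid, had 4.203 FPKM in erf71 and 7.22 FPKM in WT (-0.77).

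Transcription factors that the study named for earlier reports of altered drought resistance were also within 2-fold of WT where expressed. Of 7 that passed the limit, 0 were past 2-fold, beside 3.12% of all genes higher and 3.97% lower. For so few genes, 0 is near those shares. Above a log2 ratio of 0 were 6 of the 7, beside 45.1% of all genes, and their median was 0.24, beside -0.04. SNAC1, a NAC family regulator of stomatal closure, had 46.3 FPKM in erf71 and 44.0 FPKM in WT. OsWRKY45, a regulator of defence, had 65.7 FPKM in erf71 and 40.5 FPKM in WT (0.70). OsAP59, an AP2/ERF factor, had 6.03 FPKM in erf71 and 9.04 FPKM in WT (-0.58). At 1 HAT the median of the 7 genes was -1.24, and it was 0.16 at 6 HAT.

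Single regulators outside that set did pass 2-fold. ZFP15, a zinc finger gene, had 6.77 FPKM in erf71 and 1.47 FPKM in WT at 0 HAT (2.13, or 1.66 with 1 FPKM added). It passed the expression limit only through its erf71 value. The transcription factor gene Os04g0676700 had 36.9 FPKM in erf71 and 16.904 FPKM in WT (1.12), but 32.4 FPKM in erf71 and 30.1 FPKM in WT at 1 HAT. Neither kept a 2-fold higher level in the later libraries.

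Jasmonate genes had a median log2 ratio of -0.28 before stress. Of 10 expressed genes, 7 (70.0%) were below 0, beside 54.9% of all genes, 1 was at least 2-fold higher and 0 were at least 2-fold lower. OsJAZ12, for a repressor of jasmonate signalling, had 10.9 FPKM in erf71 and 18.4 FPKM in WT (-0.75). OsAOS2, for allene oxide synthase in jasmonate synthesis, had 8.54 FPKM in erf71 and 12.6 FPKM in WT (-0.55). OsJAZ9, another repressor gene, had 5.97 FPKM in erf71 and 1.98 FPKM in WT (1.54, or 1.22 with 1 FPKM added). It passed the limit only through its erf71 value, and with the limit on the mean 9 jasmonate genes were left, of which 0 were at least 2-fold higher. At 1 HAT 9 of the 10 genes were at least 2-fold lower in erf71, beside 5.81% of all genes.

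The remaining lists were small, and 3.12% of all genes were past 2-fold upwards and 3.97% downwards. Of 6 defence genes, 1 was past 2-fold in each direction. OsWRKY76, a repressor of defence genes, had 16.6 FPKM in erf71 and 7.15 FPKM in WT (1.21), while PBZ1, for a pathogenesis-related protein, had 37.8 FPKM in erf71 and 127 FPKM in WT (-1.75). OsHb1, a hemoglobin gene that low oxygen induces, had 12.9 FPKM in erf71 and 28.1 FPKM in WT (-1.12) and was the single gene past 2-fold among 4 hypoxia genes. Lignin genes gave 0 past 2-fold of 7, although Os4CL1, for a ligase that activates cinnamic acids, had 10.05 FPKM in erf71 and 5.37 FPKM in WT (0.89). Os4CL1 kept that direction, with 4.63 FPKM in erf71 and 1.14 FPKM in WT at 1 HAT. Clock genes gave 0 past 2-fold of 7, and OsLHY, a morning gene of the clock, had 559 FPKM in erf71 and 655 FPKM in WT (-0.23). The 4 expressed heat shock genes had a median of 0.48 with 0 past 2-fold.

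A minority of the baseline differences was seen again in the later libraries, which share no library with the 0 HAT comparison. Of the 497 genes at least 2-fold higher in erf71 at 0 HAT, 174 (35.0%) were at least 2-fold higher at 1 HAT, beside 6.36% of all genes, and 121 (24.3%) at 6 HAT, beside 3.49%. In the opposite direction, 74 of them (14.9%) were at least 2-fold lower at 1 HAT, beside 5.81% of all genes, and 75 (15.1%) at 6 HAT, beside 4.33%. Of the 632 genes at least 2-fold lower at 0 HAT, 137 (21.7%) were at least 2-fold lower at 1 HAT and 97 (15.3%) at 6 HAT, while 106 (16.8%) and 80 (12.7%) were at least 2-fold higher. Counted by direction alone, 288 (57.9%) of the higher genes were above a log2 ratio of 0 at 1 HAT, beside 53.2% of all genes, and 257 (51.7%) at 6 HAT, which was below the 55.2% of all genes. By the same count, 363 (57.4%) of the lower genes were below 0 at 1 HAT, beside 46.6% of all genes, and 325 (51.4%) at 6 HAT, beside 44.4%. Without genes listed at 0 in 1 library, 262 (60.6%) of 432 higher genes were above 0 at 1 HAT and 240 (55.6%) at 6 HAT. The share of higher genes at 6 HAT was then next to the 55.2% of all genes. For lower genes, 351 (58.0%) and 320 (52.9%) of 605 were below 0. Genes past 2-fold before stress were therefore past 2-fold later more often than all genes, in both directions. Past 2-fold the same way at all 3 times were 80 of the higher genes (16.1%, beside 1.63% of all genes that were higher at both later times) and 31 of the lower genes (4.91%, beside 0.747% that were lower at both).

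**Figure D4:**
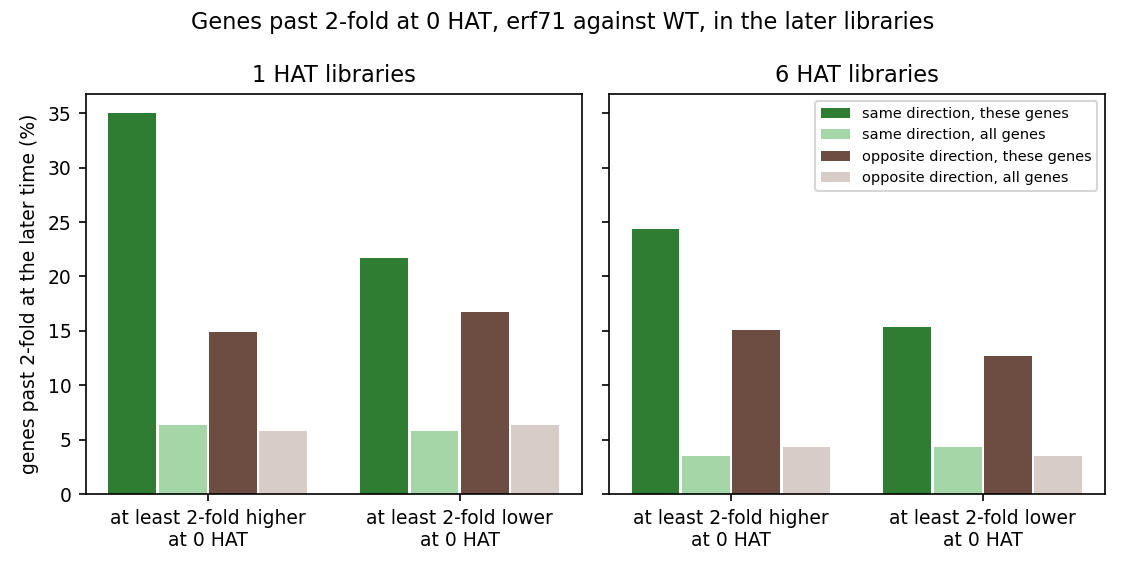
Percentage of genes past 2-fold at 1 HAT (left panel) and 6 HAT (right panel), in the same or the opposite direction, among the 497 genes at least 2-fold higher and the 632 genes at least 2-fold lower in erf71 at 0 HAT, each beside the share of all 15923 genes. The same-direction bars reach 35.0% and 24.3% for the higher genes and 21.7% and 15.3% for the lower genes, and the opposite-direction bars of these genes also exceed those of all genes.

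The share of higher genes that kept their direction differed between levels. Among higher genes with a mean of 100 FPKM or more, 81.6% of 38 were above a log2 ratio of 0 at 1 HAT and 76.3% at 6 HAT. Among those with a mean of 5 to 10 FPKM, 48.7% of 154 were above 0 at 1 HAT and 49.4% at 6 HAT. The shares of all genes were 53.2% and 55.2%. Genes of this class can also have passed the limit through 1 library alone. For lower genes, 54.8% of 42 in the highest class and 61.4% of 176 with a mean of 5 to 10 FPKM were below 0 at 1 HAT.

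OsYSL15 was past 2-fold at all 3 times, as given above. The 5 genes in each direction with the largest lasting ratios have no name in the annotation used here, and 1 of each is described. Os07g0511400 had 166 FPKM in erf71 and 0.59 FPKM in WT at 0 HAT. It had 179 FPKM in erf71 and 0.683 FPKM in WT at 1 HAT, and 72.6 FPKM in erf71 and 1.46 FPKM in WT at 6 HAT, so that its log2 ratios were 7.91, 7.83 and 5.54. Os02g0583700 had 216 FPKM in erf71 and 878 FPKM in WT at 0 HAT, and stayed lower with 162 FPKM in erf71 and 745 FPKM in WT at 1 HAT and 22.5 FPKM in erf71 and 77.2 FPKM in WT at 6 HAT.

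The most extreme ratios at 0 HAT came mainly from genes listed at 0 in 1 library. Of the 15 highest ratios 12 had a WT value of 0, of the 15 lowest 12 had an erf71 value of 0, and 0 of either 15 were past 2-fold the same way at both later times. In all, 65 genes were listed at 0 in WT and 27 in erf71. Of the 65, 35 had at least 5 FPKM in WT at 1 or 6 HAT and 17 were at 0 in WT at both. Of the 27, 8 had at least 5 FPKM in erf71 at 1 or 6 HAT and 16 were at 0 in erf71 at both. A listed 0 in this kind of table can be a failed estimate. No fold difference is printed for such genes here, but they are included in the counts, shares and ranks unless stated otherwise. The highest ratio belonged to Os11g0115375, which had 571 FPKM in erf71 and under 0.1 FPKM in WT at 0 HAT, but 361 FPKM in erf71 and 330 FPKM in WT at 1 HAT and 755 FPKM in erf71 and 942 FPKM in WT at 6 HAT. The lowest belonged to Os03g0388432, listed at 0 in erf71 and at 246 FPKM in WT. Without genes listed at 0, 432 genes were at least 2-fold higher and 605 at least 2-fold lower in erf71.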

How the data were processed

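Total RNA was extracted from whole plants, and poly(A) RNA was isolated from it and sequenced after TruSeq library preparation. By the methods of the study and the submitters' processing notes (CASAVA 1.8.2, Bowtie, TopHat2, Cufflinks), reads were aligned to IRGSP-1.0 and the authors deposited one FPKM value per Rice Annotation Project gene and library. No counts were used here, and the depth is unknown. The strandedness of the libraries is not given in the sources used here. Small RNA, long non-coding RNA and the cultivar Vandana were not analysed here.

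Log2 ratios of erf71 over WT were computed after 0.1 FPKM was added, for genes with at least 5 FPKM in 1 of the 2 libraries at 0 HAT (Python 3.11.15, pandas 2.3.3, numpy 2.4.6). With 1 library per group there was no test, and a gene was called at 2-fold. The scripts were tested on simulated data. The pseudocount, the expression limit, the fold and the scaling of the libraries were varied. Named genes were OsERF71, the genes of the lists and of the study's tree, the 15 highest and 15 lowest ratios, and the 5 per direction with the largest lasting ratio, of which 4 without a name are printed. Members and lists were chosen with earlier results of these data known.

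The deposited table gives gene identifiers only. Of 163 listed identifiers, 19 are named in the paper and 88 carry a symbol, assigned from general knowledge, that RefSeq places on the same chromosome. The order of 495 of 495 pairs on 1 chromosome was the same in both. The 56 others are neither named nor counted. Module and tree lists are those printed by the study, in part.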

Additional observations from a re-analysis of the deposited data

Results flagged for a closer look

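Of the genes named in the report, 4 were past 2-fold at 0 HAT in 1 direction and past 2-fold in the other direction later. In each case 1 library of each genotype was compared at each time, and the difference between the times was not tested. OsJAZ9 had a log2 ratio of erf71 over WT of 1.54 at 0 HAT and -3.51 at 1 HAT, where it had 12.8 FPKM in erf71 and 146 FPKM in WT. ZFP15 had 2.13 at 0 HAT and -2.37 at 1 HAT, where it had 19.6 FPKM in erf71 and 101 FPKM in WT. OsWRKY76 had 1.21 at 0 HAT and -1.52 at 1 HAT, where it had 18.4 FPKM in erf71 and 52.9 FPKM in WT. PBZ1 had -1.75 at 0 HAT and 1.83 at 6 HAT, where it had 104 FPKM in erf71 and 29.1 FPKM in WT. At 0 HAT OsJAZ9 and ZFP15 passed the expression limit only through the erf71 library.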

How the results depend on the processing

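The counts of genes past 2-fold followed the expression limit: 1225 higher and 1535 lower with at least 1 FPKM, 306 and 386 with at least 10 FPKM, and 2447 and 2786 with no filter. A 4-fold threshold gave 152 and 134. Of the genes past 2-fold at 0 HAT, 57.7% had the same direction at 1 HAT and 51.6% at 6 HAT. These shares were 49.0% and 45.2% with no filter, and 50.7% and 41.6% past 4-fold. A later ratio of exactly 0, as for a gene at 0 in both libraries, was not counted as the same direction. The remainder therefore includes such genes as well as genes of the opposite direction. Scaling by the median ratio gave 519 higher and 580 lower genes, and by the upper quartile 530 and 560. Values next to 0 changed sign with the scaling. Median ratio scaling gave log2 values of 0.0114 for the Module 5 median, 0.0029 for OsPRR73, 0.018 for Os03g0680800, 0.041 for OsC3H32 and 0.015 for the nitrogen fixation-like gene Os06g0694500. Upper quartile scaling gave 0.0276 for Module 5, 0.00689 for Module 2, 0.0133 for the factors the study tested by RT-PCR, 0.019 for OsPRR73, 0.035 for Os03g0680800, 0.057 for OsC3H32 and 0.031 for Os06g0694500. Scaling to an equal sum gave 0.022 for OsC3H32. The cause was not tested. OsERF71 stayed between 0.59 and 0.65. Leaving out genes listed at 0 was chosen after seeing the data. No library could be left out with 1 per group. No paired analysis was possible because each group has 1 library and the labels carry no replicate numbers.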
